A study of Mus musculus with 3 samples.

Results

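The unfolded protein response and the chaperones of the endoplasmic reticulum (ER) were followed through 35 genes named in a list of known roles. The gene tables held 55536 annotated genes, and every one of the 35 was found in them. The cells were macrophages grown from bone marrow of C57BL/6J mice, sequenced as polyadenylated RNA in 3 libraries. All 3 libraries carried the same label, 100 ng/ml lipid A for 0 minutes, so they form 1 group, labelled as biological replicates, at the start of a stimulation and no second condition was compared. Toll-like receptor 4 recognises lipid A, the membrane anchor of bacterial lipopolysaccharide. The libraries have separate biosample entries under a single donor record, and separate animals are not stated, so p-values measure only the spread between these libraries, which may be technical. Age and sex were not recorded.

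Proteins that enter the ER are folded by chaperones, joined by disulfide bonds and checked before they leave. When unfolded protein builds up, the membrane sensors IRE1, ATF6 and PERK start the unfolded protein response: IRE1 splices the mRNA of the transcription factor XBP1, ATF6 is cut into a transcription factor, and PERK phosphorylates eIF2alpha, which slows translation and favours that of ATF4. These factors switch on chaperones, disulfide enzymes and ER-associated degradation (ERAD), and ATF4 also drives CHOP (Ddit3) and genes of amino acid supply. Macrophages secrete cytokines and lysosomal enzymes and carry many membrane receptors, all of which pass through the ER.

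Expected counts summed to 27946070 in replicate 1, 29779410 in replicate 2 and 53447437 in replicate 3. The 35 genes together took 0.729%, 0.650% and 0.896% of these counts. Levels are given in TPM, an abundance corrected for transcript length, and differences between libraries in CPM, counts scaled to library size with factors from the trimmed mean of M values (TMM). A count of 0 allowed up to 3 counts, or 0.107, 0.101 and 0.0561 CPM, and this limit covers counting error only. All 10 macrophage markers passed 1 TPM in all libraries, with medians of 403, 445 and 236 TPM over the list. Of 11 plasma and B cell markers, 7 were below 1 TPM in every library. The summed level of the list was 14.7, 43.6 and 37.9 TPM, with Tnfrsf17 listed at 0 in replicates 1 and 2. Of 5 plasmacytoid dendritic cell markers 3 were below 1 TPM in every library, the list summing to 1.77, 2.86 and 5.06 TPM. Of 8 neutrophil markers 4 passed 1 TPM and 2 passed 10 TPM in all libraries. That list summed to 172, 36.2 and 337 TPM with Ly6g at 0, and all 8 stromal markers were below 1 TPM. Mitochondrial genes took 1.84%, 2.24% and 6.98% of counts and a ribosomal RNA gene 9.75%, 1.88% and 2.50%.

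Promoters of some of the 35 genes hold the sequence elements through which the response is known to act. These are printed first because some later comparisons split the genes by them, while the genes are otherwise grouped by role. Promoters from RefSeq on build GRCm38.p6, covering 250 bases before and 50 bases after the gene start, were matched for 30 of the 35 genes (Ero1l under its newer symbol Ero1a). None was matched for Hyou1, Manf, Atf6, Ppp1r15b and Derl1. The ER stress response element (ERSE) consists of CCAAT and CCACG with 9 bases of any kind between them, bound by the factor NF-Y on one side and by ATF6 or XBP1 on the other. Searched on both strands with no mismatch, it was present in 8 of the 30 promoters (26.7%), against 0.12% of 32544 mouse promoters of the same length. The 9 matches in these 8 genes are given below in the direction of the element, with its fixed letters in capitals and 5 bases on either side. In annotation M21 the Hspa5 match lies within the first exon of Hspa5-201, which starts further upstream.
Hspa5, chr2:34772020-34772048, + strand, 47 bases before the start: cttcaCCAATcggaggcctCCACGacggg
Hsp90b1 first match, chr10:86705633-86705661, - strand, 194 bases before the start: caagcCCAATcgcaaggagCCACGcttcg
Hsp90b1 second match, chr10:86705528-86705556, + strand, 89 bases before the start: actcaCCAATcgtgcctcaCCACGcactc
Calr, chr8:84847070-84847098, + strand, 144 bases before the start: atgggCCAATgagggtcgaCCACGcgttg
Canx, chr11:50325795-50325823, - strand, 127 bases before the start: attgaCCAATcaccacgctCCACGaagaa
Dnajc3, chr14:118937822-118937850, + strand, 87 bases before the start: cacaaCCAATcagcgccaaCCACGacccg
Pdia6, chr12:17266486-17266514, + strand, 80 bases before the start: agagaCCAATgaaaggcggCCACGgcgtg
Creld2, chr15:88819515-88819543, - strand, 108 bases before the start: gtggaCCAATtgaggctcgCCACGagaag
Syvn1, chr19:6046527-6046555, + strand, 26 bases before the start: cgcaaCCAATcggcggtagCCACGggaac

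Of these 8 genes 6 encode ER chaperones, lectins or oxidoreductases, Dnajc3 encodes a co-chaperone that also binds PERK, and Syvn1 encodes the ubiquitin ligase of ERAD. Hsp90b1 was the gene of the list with more than 1 match, and the stretch that holds both runs for 144 bases. It also contains further CCAAT boxes on the opposite strand, which are left in lower case.
Hsp90b1, chr10:86705523-86705666, - strand: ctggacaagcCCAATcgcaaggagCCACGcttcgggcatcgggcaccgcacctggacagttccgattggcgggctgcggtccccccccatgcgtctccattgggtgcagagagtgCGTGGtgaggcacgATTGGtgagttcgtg

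With 1 mismatch allowed among the 10 fixed letters, a search chosen after the exact matches were seen, 14 of the 30 promoters held an ERSE against 1.51% of all promoters. The added genes were Pdia3, Pdia4, Ddit3, Herpud1, Sel1l and Derl2. In the following sites the lower-case letter within either block is the base that differs. In annotation M21 the Pdia3 and Derl2 sites lie in the first exons of Pdia3-201 and Derl2-207, and the Ddit3 site overlaps an exon of Gm4189.
Pdia3, chr2:121413868-121413896, + strand, 11 bases before the start: cgcagCCAATcggcggctgCCACactgcg
Pdia4, chr6:47813597-47813625, + strand, 90 bases before the start: gaccaCCAATcacgggctgCCACtcggtt
Ddit3, chr10:127290697-127290725, - strand, 73 bases before the start: gcctaCCAATcagaaagcggCACGctggc
Sel1l, chr12:91849325-91849353, - strand, 173 bases before the start: cgctaCCAATtagctggggCCAtGtcggt
Derl2, chr11:71019466-71019494, + strand, 168 bases before the start: gtccgCCAATccctgccggCCACagctag

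A second form of the element, ERSE-II (ATTGG and CCACG with 1 base between them), was found in 2 of the 30 promoters, Dnajb11 (after the gene start) and Herpud1, against 0.0369% of all promoters. The C/EBP-ATF response element bound by ATF4 (CARE, TGATGNAA) was found in 4 promoters, those of Trib3, Chac1, Asns and Herpud1, against 3.91% of all promoters. The Trib3 match lies after the gene start, and the Asns match lies in the first exon of Asns-201. The XBP1 element UPRE (TGACGTGG) was in none of the 30 and in 0.682% of all promoters. A match is a description of letters in this window and not a bound site. Genes and elements were both chosen for known parts in this response, so these shares were not a test. Herpud1, whose product links ERAD components, held both a CARE and an ERSE-II within 91 bases.
Chac1 CARE, chr2:119351044-119351061, - strand: aggagTGATGcAAcggca
Asns CARE, chr6:7693220-7693237, - strand: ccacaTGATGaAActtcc
Herpud1 CARE and ERSE-II, chr8:94386307-94386397, + strand, with the CARE on the opposite strand: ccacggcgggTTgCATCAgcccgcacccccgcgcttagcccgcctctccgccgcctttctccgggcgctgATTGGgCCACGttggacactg

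**Figure D1:**
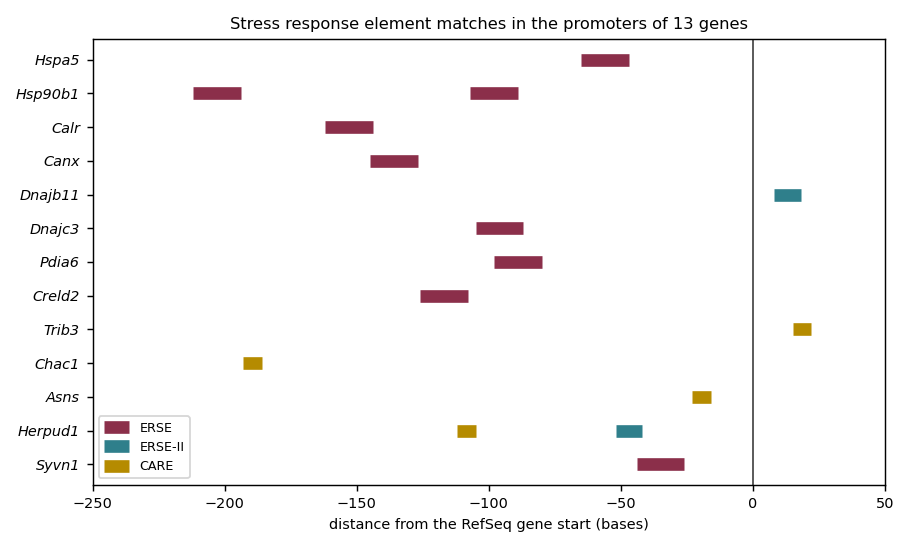
Positions of exact ERSE, ERSE-II and CARE matches in the promoters of 13 genes, as distance in bases from the RefSeq gene start (vertical line). The ERSE matches lie between 212 and 26 bases before the start, while the Dnajb11 and Trib3 matches lie after it.

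Nearly the whole list was expressed before stimulation. In every library 33 of the 35 genes reached 1 TPM, against 44.8% of 22028 protein-coding genes and 19.0% of all annotated genes. At 10 TPM in every library there were 30 of 35 (26.6% of protein-coding and 10.8% of all genes), and at 100 TPM there were 8 of 35 (3.74% of protein-coding and 1.54% of all genes). The median over the 35 genes of the mean TPM was 60.8. The 8 genes with an exact ERSE had a median of 283 TPM, from 24.5 TPM for Creld2 to 1366 TPM for Calr, and the 22 genes with a promoter but no exact ERSE a median of 65.4 TPM, from 0.13 to 366 TPM. The split by element overlaps with that by role. The chaperone and oxidoreductase groups had medians of 140 and 133 TPM. The group of eIF2alpha phosphatase subunits and ATF4-CHOP targets had 4.06 TPM. Members had been listed for their function, and the shares describe these libraries without a test.

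**Figure D2:**
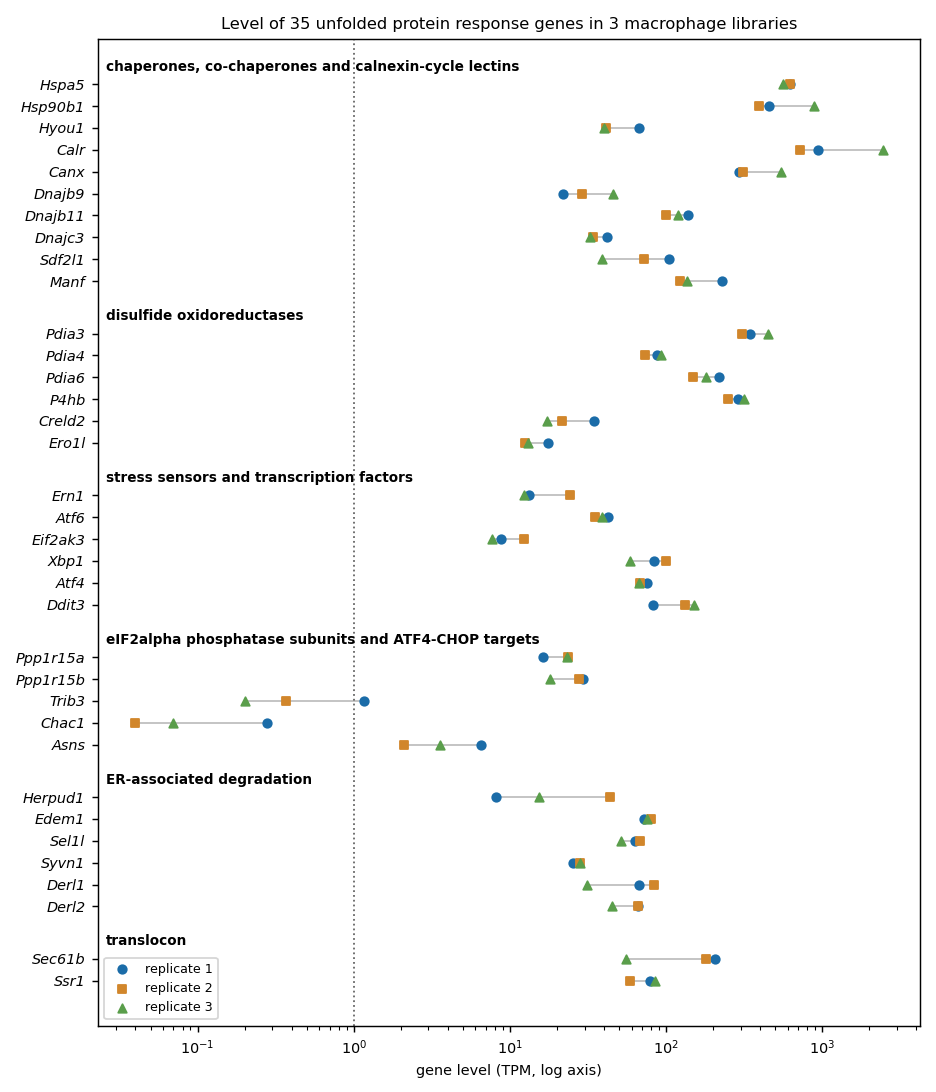
Level of each of the 35 genes in each library (TPM, log axis), grouped by role, with a grey line from the lowest to the highest library and a dotted line at 1 TPM. Calr stands highest in every library, and Trib3 and Chac1 are the genes with libraries below 1 TPM.

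Chaperones and lectins were the most abundant group. Hspa5 (BiP, chr2:34771970-34777547, mm10), the Hsp70 chaperone of the ER that also holds the sensors inactive, was at 623, 621 and 563 TPM in replicates 1, 2 and 3 (602 ± 33.9 TPM, SD, n = 3). Its mean was above that of 98.2% of the 9875 protein-coding genes at 1 TPM or more in every library. Hsp90b1 (GRP94, chr10:86690209-86705509), the ER form of Hsp90 that folds Toll-like receptors and integrins, was at 456, 392 and 885 TPM (578 ± 268 TPM). In these TPM the libraries of Hspa5 lay close together, whereas Hsp90b1 stood apart in replicate 3. On TMM-scaled counts Hsp90b1 was at 748, 632 and 1714 CPM, a 2.71-fold span, and Hspa5 at 910, 876 and 1189, a 1.36-fold span.

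The lectin chaperones of the calnexin cycle hold glycoproteins until they are folded. Calr (calreticulin, chr8:84841850-84846934) was at 937, 718 and 2444 TPM, and Canx (calnexin, chr11:50293961-50325673) at 293, 309 and 547 TPM. Both were highest in replicate 3, and for both most of that excess fell on a short transcript, as described further on. Counted over protein-coding transcripts of at least 1000 nt only, the log2 ratio of replicate 3 to the other libraries (their geometric mean, on TMM-scaled counts) was 0.42 for Calr, against 1.19 over all its transcripts, and 0.17 for Canx, against 0.36.

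Among the other chaperones Hyou1 (GRP170), a nucleotide exchange factor for BiP, was at 67.4, 41.5 and 40.1 TPM, with replicate 1 highest. The J-domain proteins, which deliver clients to BiP, differed in level. Dnajb11 (ERdj3) was at 139, 99.5 and 119 TPM, Dnajc3 (p58IPK) at 41.5, 33.9 and 32.6 TPM and Dnajb9 (ERdj4) at 21.7, 29.1 and 45.4 TPM. Dnajb9 alone among them spanned more than 2-fold on TMM-scaled counts (30.6, 40.4 and 80.0 CPM, 2.61-fold) and was highest in replicate 3 in each of the 10 scalings and count tables compared. Sdf2l1, a partner of ERdj3, was at 104, 72.5 and 39.0 TPM, with replicate 3 lowest. Manf, a secreted ER-resident factor, was at 226, 123 and 136 TPM, with replicate 1 highest.

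The disulfide enzymes form and rearrange the bonds between cysteines. Pdia3 (ERp57), which works with the lectins, was at 345, 304 and 449 TPM. P4hb (protein disulfide isomerase) was at 289, 248 and 315 TPM, Pdia6 (P5) at 219, 149 and 180 TPM and Pdia4 (ERp72) at 87.6, 73.2 and 92.5 TPM. In all 4 of these genes replicate 2 was lowest. Creld2, a disulfide isomerase of the response, was at 34.7, 21.6 and 17.1 TPM, and Ero1l, the oxidase that recharges the isomerases, at 17.5, 12.5 and 13.1 TPM. None of the 6 oxidoreductase genes spanned 2-fold on TMM-scaled counts.

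The sensors were at lower levels than most of the chaperones. Atf6 was at 42.4, 34.9 and 38.6 TPM, Ern1 (IRE1) at 13.2, 24.1 and 12.4 TPM, and Eif2ak3 (PERK) at 8.81, 12.3 and 7.66 TPM. Ern1 and Eif2ak3 were highest in replicate 2 in each of the 10 scalings and count tables. Their target factors were more abundant: Xbp1 was at 84.1, 99.1 and 58.5 TPM and Atf4 at 75.8, 67.8 and 66.6 TPM. Atf4 kept within a 1.24-fold span on TMM-scaled counts. The activity of these factors is set largely by splicing, cleavage and translation, which these tables do not measure. The shortest intron annotated in Xbp1 was 300 bases, so the short intron that IRE1 removes is not a separate feature and the spliced and unspliced forms cannot be told apart.

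Ddit3 (CHOP), the factor downstream of ATF4, was at 82.0, 133 and 151 TPM, or 31.8, 51.1 and 69.2 TMM-scaled CPM, a 2.18-fold span with replicate 1 lowest. A second gene entry with the same symbol held at most 0.91 counts. Exons of Ddit3 overlap those of Mars (22.3, 16.7 and 13.9 TPM) on the opposite strand over 68 bases, and whether counting used strand is not given in the sources used here. Ppp1r15a (GADD34), which brings a phosphatase to eIF2alpha and is a target of ATF4 and CHOP, was at 16.3, 23.4 and 23.1 TPM. Like Ddit3 it was lowest in replicate 1, at 16.9 against 30.8 and 37.5 TMM-scaled CPM (2.22-fold). Its constitutive counterpart Ppp1r15b (CReP) was at 29.4, 27.5 and 18.2 TPM.

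The remaining ATF4 and CHOP targets were the lowest genes of the list. Asns (asparagine synthetase) was at 6.56, 2.08 and 3.55 TPM, from 211, 68 and 244 counts. Trib3, a pseudokinase that inhibits AKT signalling, was at 1.16, 0.37 and 0.20 TPM, from 36, 13 and 14 counts. Chac1, which degrades glutathione, was at 0.28, 0.04 and 0.07 TPM, from 7, 1 and 4 counts. Its count in replicate 2 lay below the limit of 3 counts. Each of these 3 genes was highest in replicate 1, whereas Ddit3 and Ppp1r15a were lowest there. All 3 hold a CARE in the promoter window, but so does Herpud1, which was lowest in replicate 1. Trib3 and Chac1 did not pass the filter on low counts and were not tested.

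ERAD returns misfolded proteins to the cytosol for degradation. Edem1, a mannosidase-like protein that picks out glycoproteins, was at 71.9, 79.9 and 75.4 TPM, and Sel1l, the adaptor of the ligase complex, at 63.4, 67.6 and 51.2 TPM. Syvn1 (HRD1), the ligase itself, was at 25.5, 28.0 and 28.1 TPM. Sel1l had the smallest span of the list on TMM-scaled counts, 1.02-fold (208, 211 and 208 CPM). The channel proteins Derl1 and Derl2 were at 67.4, 83.6 and 31.2 TPM and at 65.8, 65.5 and 44.7 TPM, with replicate 3 lowest in both.

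Herpud1 (HERP, chr8:94386438-94395377), an ERAD adaptor and a known target of the stress response, had the widest span on TMM-scaled counts among the 33 tested genes. It was at 8.14, 43.7 and 15.2 TPM, from 249, 1378 and 832 counts. Replicate 2 stood above both other libraries, and on TMM-scaled counts (8.64, 44.2 and 16.9 CPM) the span was 5.11-fold. Its quasi-dispersion was 7.90 times the value fitted for genes of like abundance (unadjusted p = 0.0254, adjusted p = 0.970, edgeR's upper-tail quasi-likelihood F test over 11886 genes). It was highest in replicate 2 in each of the 10 scalings and count tables. Its dominant transcript, Herpud1-205, was at 7.34, 37.4 and 10.9 TPM.

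Of the translocon genes, Sec61b, a subunit of the protein-conducting channel, was at 206, 179 and 55.0 TPM. Ssr1, a subunit of the associated translocon complex, was at 78.7, 58.3 and 85.1 TPM. Sec61b was lowest in replicate 3, with 13.98 against 40.4 and 34.5 TMM-scaled CPM (2.89-fold), and its main transcript, at 564 nt, is the shortest dominant transcript of the list. Annotated minus effective transcript length, which follows the mean fragment length, was 259, 259 and 246 nt in the RSEM-format tables and 260, 262 and 215 nt in the kallisto-format tables. The part of fragment length in the Sec61b values was not tested.

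The 35 genes have 149 annotated transcripts, and the most abundant by mean TPM was protein-coding in all 35. It was the transcript numbered 201 in 31 genes. In the others it was Hspa5-202, Herpud1-205, Derl2-207 or Ssr1-203. In 21 genes the dominant transcript held 90% or more of the gene's TPM, and 4 genes (Dnajc3, Sdf2l1, Creld2 and Chac1) have 1 annotated transcript. The dominant transcript differed between libraries in 5 of the 27 genes that had several transcripts and 10 TPM or more in every library, Calr, Canx, Syvn1, Derl2 and Ssr1, against 21.7% of 5544 such protein-coding genes. Without replicate 3 all 35 genes had the same dominant transcript in the remaining libraries. The dominant transcript held under 60% of the mean TPM in 6 of the 27, Calr, Manf, Ppp1r15b, Syvn1, Derl2 and Ssr1, against 32.4%. It differed between the RSEM-format and kallisto-format tables in 2 of the 27, Calr and Syvn1, against 9.43%, with Calr-204 and Syvn1-204 leading in the latter.

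In replicate 3 several of these genes had a large share of their TPM on short transcripts. The coding transcript Calr-201 (2184 nt) was at 847, 618 and 767 TPM, while Calr-204, a retained-intron transcript of 943 nt, was at 81.8, 89.7 and 1672 TPM. Calr-204 shares 90.8% of its bases with Calr-201. In RSEM-format TPM the excess of replicate 3 lay on this transcript, which has no coding annotation, while its Calr-201 lay between the other libraries. In the kallisto-format tables Calr-201 was at 566, 415 and 652 TPM, highest in replicate 3. Canx-201 (3779 nt) was at 278, 273 and 244 TPM and the processed transcript Canx-202 (708 nt) at 2.84, 25.8 and 290 TPM. P4hb-203 (770 nt) was at 9.13, 3.81 and 131 TPM, and Edem1-202 (459 nt) at 2.14, 5.52 and 28.4 TPM. Ssr1-202 (523 nt) was listed at 0, 0 and 34.1 TPM. In replicate 3 transcripts under 1000 nt held 68.6% of the TPM of Calr and 53.1% of that of Canx. For P4hb, Edem1 and Ssr1 the share was 41.8%, 38.6% and 40.1%. Ssr1-202 exceeded each single longer transcript of Ssr1 there, but the longer ones together held more.

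**Figure D3:**
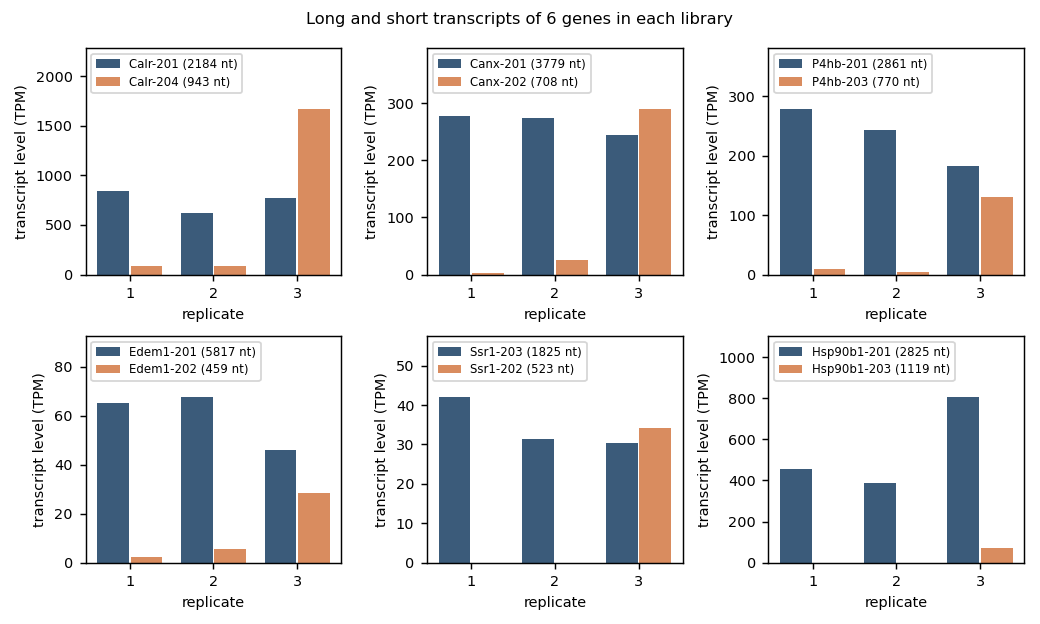
Level (TPM) of a long transcript (dark bars) and a shorter transcript (light bars) of 6 genes in replicates 1, 2 and 3 in the RSEM-format tables, each panel from 0. In replicate 3 the short transcripts of Calr, Canx and Ssr1 exceed the long ones drawn beside them, while for Hsp90b1 the long transcript is the higher one in every library.

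A rule chosen after these values were seen counted genes whose TPM share on transcripts under 1000 nt was more than 10 percentage points above both other libraries. In replicate 3 it took 5 of the 27 genes (Calr, Canx, P4hb, Edem1 and Ssr1), against 17.8% of the 5544 genes, so the share was close to that of other genes. In replicate 1 it took 1 of 27 (Ppp1r15a; 0.902% of all) and in replicate 2 none (1.88% of all). In the kallisto-format tables it took 6 of the 27 in replicate 3, with Derl1 added, against 13.9% of all, and 1 in replicate 2, Ero1l, against 4.69%. In the kallisto-format tables Calr-204 was at 220, 159 and 1710 TPM and Canx-202 at 64.6, 75.0 and 335 TPM. The long Canx-201 was at 201, 194 and 232 TPM there and, like Calr-201, highest in replicate 3. Hspa5 went the other way, with 11.1%, 11.9% and 0.611% of its TPM on such transcripts, mainly Hspa5-204 at 67.6, 70.8 and 2.63 TPM.

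Hsp90b1 differed from Calr and Canx. Its long transcript Hsp90b1-201 (2825 nt) was at 454, 388 and 809 TPM, and Hsp90b1-203 (1119 nt) was listed at 0, 0 and 71.3 TPM. Over protein-coding transcripts of at least 1000 nt only, replicate 3 had a log2 ratio of 1.32 to the other libraries, equal to that over all its transcripts. Dnajb9 (1.18 and 1.19) and Pdia3 (0.80 and 0.81) likewise had nearly the same ratio in both counts. Transcripts under 1000 nt held at most 0.566% of the TPM of Hsp90b1, Dnajb9 or Pdia3 in any library. The restriction therefore removed almost nothing from these genes and could hardly change their ratios. Syvn1 changed between long coding forms, with Syvn1-204 (3464 nt) at 13.8, 12.7 and 0.74 TPM and Syvn1-203 (3159 nt) at 2.28, 4.25 and 10.03 TPM. The leading form in replicate 3 was Syvn1-201 (2780 nt), with 43.6% of the gene's TPM. In the kallisto-format tables it was Syvn1-203. Derl2-202 (884 nt) was at 21.96, 25.1 and 10.1 TPM and Derl2-207 (1466 nt) at 21.7, 22.3 and 24.0 TPM. Manf was divided between coding Manf-201 (102, 57.5 and 86.7 TPM) and the retained-intron Manf-205 (96.1, 49.4 and 38.8 TPM), and Ppp1r15b between coding Ppp1r15b-201 (16.7, 15.1 and 9.56 TPM) and Ppp1r15b-202 (12.7, 12.4 and 8.60 TPM), which has no coding annotation.

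No gene of the list was called more variable between libraries than genes of like abundance. The edgeR test called 0 of 33 tested members and 0 of 11886 genes (0%), with a smallest adjusted p of 0.970. Herpud1 was the 1 member with an unadjusted p under 0.05, against 545 of all genes (4.59%), and DESeq2's dispersion outliers held none of the 33 and 9 of all genes. A span over 2-fold on TMM-scaled counts was found for 10 of 33 (36.9% of all genes): Hsp90b1, Calr, Dnajb9, Sdf2l1, Ddit3, Ppp1r15a, Asns, Herpud1, Derl1 and Sec61b. The median ratio of quasi-dispersion to the fitted value was 0.652 for the members and 0.804 for all genes. With 3 libraries the test has little reach, and a p that misses the threshold does not show that libraries were alike.

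**Figure D4:**
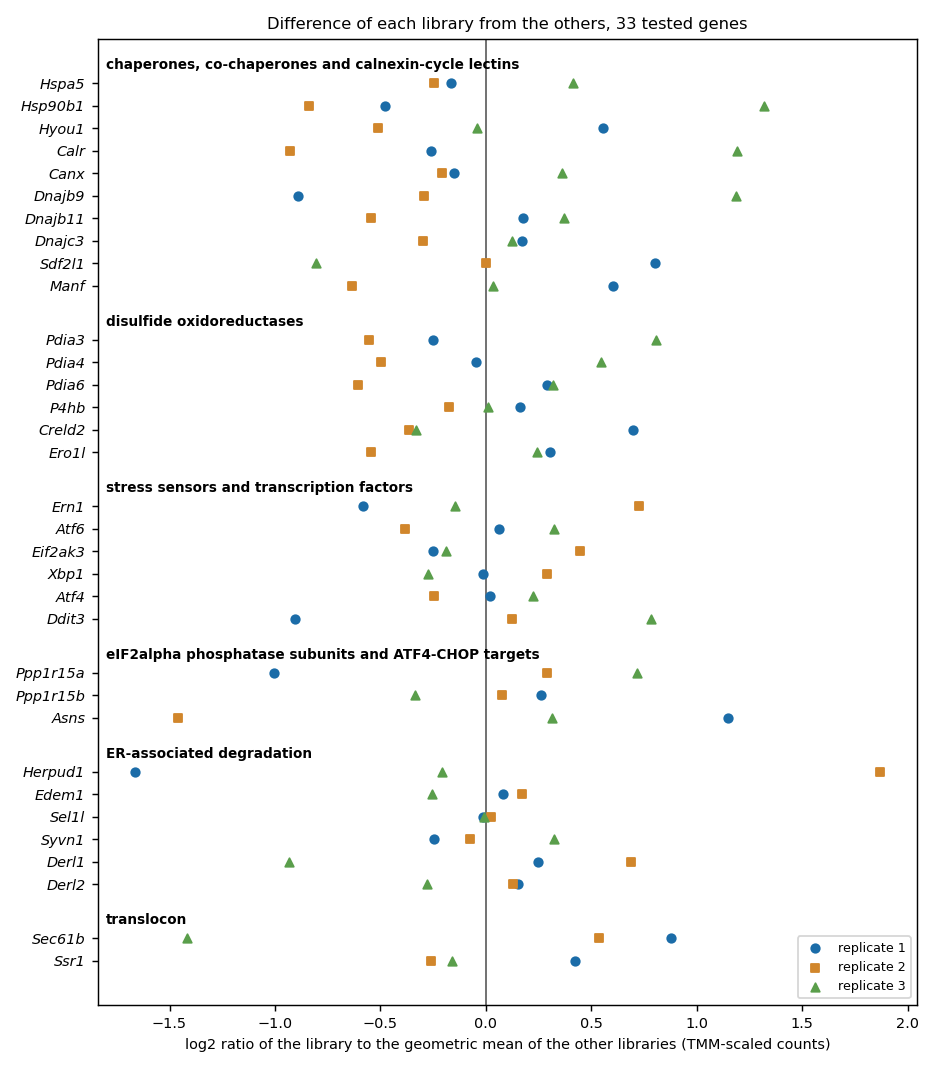
Log2 ratio of each library over the geometric mean of its fellow libraries on TMM-scaled counts for the 33 tested genes, by role. Replicate 2 lies left of zero for most chaperones and for all 6 oxidoreductases, and Herpud1 shows the widest spread.

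Chaperones and oxidoreductases were lowest together in replicate 2. On TMM-scaled counts 18 of the 33 tested genes were lowest in replicate 2 (32.9% of all genes), among them 8 of 10 chaperone genes and 6 of 6 oxidoreductase genes. The chaperone genes had median log2 ratios of 0.01, -0.40 and 0.37 in replicates 1, 2 and 3, and the oxidoreductases 0.23, -0.52 and 0.28. The 33 genes together had 0.06, -0.24 and 0.12, against 0.00, 0.00 and 0.01 for all tested genes. The ERAD genes did not share this order: 4 of 6 were highest in replicate 2 (Herpud1, Edem1, Sel1l and Derl1; 32.3% of all genes), as were Ern1, Eif2ak3 and Xbp1. Of the 8 genes with an exact ERSE 7 were lowest in replicate 2, with median ratios of -0.16, -0.33 and 0.34. Of the 20 tested genes with a promoter but no exact ERSE 8 were, with median ratios of 0.00, 0.01 and 0.00. The groups by element and by role overlap. Among chaperones and oxidoreductases with a promoter but no exact ERSE, Dnajb11, Pdia3, Pdia4, P4hb and Ero1l were also lowest in replicate 2. Dnajb9 and Sdf2l1 were not. The order was not particular to ER genes. Of 27 tested chaperones of the cytosol and mitochondria, 21 were lowest in replicate 2, with median ratios of 0.41, -0.49 and 0.23. These are descriptions of 1 group, with no test of the list.

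The scale bears on this order. On log2 TPM with pseudocount 1, 12 of 33 were lowest in replicate 2 (23.4% of all genes) and 14 in replicate 3 (49.5%), with member medians of 0.14, -0.11 and -0.10. The median of all tested genes moved to 0.10, 0.12 and -0.23 on that scale, so relative to it the members remained below in replicate 2 and above in replicate 3. By group, 4 of 10 chaperone genes, 5 of 6 oxidoreductase genes and 3 of 8 genes with an exact ERSE were lowest in replicate 2 on that scale. For the oxidoreductases it was 4 of 6 with library totals only and 5 of 6 on kallisto estimated counts. Over protein-coding transcripts of at least 1000 nt it was also 5 of 6, with P4hb lowest in replicate 3. Hspa5 was among those that changed order, from lowest in replicate 2 on TMM-scaled counts to lowest in replicate 3 in RSEM-format TPM. Its dominant transcript Hspa5-202 was at 457, 468 and 400 TPM there. In the kallisto-format tables the same transcript was at 376, 363 and 540 TPM, highest in replicate 3. Neutrophil markers moved the same way as the chaperones: their median log2 ratios were 0.47, -3.17 and 2.70, and all 4 tested (unadjusted edgeR p from 0.0018; adjusted p 0.970) were lowest in replicate 2. Macrophage markers had 0.09, 0.34 and -0.41, with 6 of 10 highest in replicate 2. The ribosomal RNA share of counts was also lowest in replicate 2, but at 9.75%, 1.88% and 2.50% it was highest in replicate 1. The mitochondrial share, 1.84%, 2.24% and 6.98%, was lowest in replicate 1 and highest in replicate 3. The part of these in the chaperone values was not tested, and in bulk RNA fewer cells of a type and less RNA per cell cannot be told apart.

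The wider ER machinery, listed separately, gave a background for these values. Of 46 other ER folding factors 39 passed 1 TPM in all libraries, and their median was 38.6 TPM. The highest were Ppib (cyclophilin B; 392, 344 and 201 TPM), Erp29 (299, 285 and 231 TPM) and Sdf4 (204, 244 and 311 TPM), and the lowest was the testis lectin Clgn (0.01, 0 and 0.01 TPM). Among those at 10 TPM or more in every library, Dnajc1 had the largest TPM ratio between libraries (22.1, 16.5 and 49.1 TPM) and Txndc12 the smallest (41.7, 47.5 and 44.2 TPM). The median log2 ratios of these 42 tested genes, -0.08, -0.05 and 0.08, stand beside 0.01, -0.40 and 0.37 for the 10 chaperones, and the difference between the lists was not tested.

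All 33 other translocon, signal peptidase and oligosaccharyltransferase genes passed 1 TPM in all libraries, and their median was 81.3 TPM. Spcs1 (299, 279 and 154 TPM), Srp14 (196, 211 and 140 TPM) and Ssr3 (159, 153 and 146 TPM) were highest and Sec61a2 lowest (8.21, 11.8 and 4.55 TPM). By TPM ratio among genes at 10 TPM or more, Sec63 varied most (32.02, 31.0 and 85.3 TPM) and Spcs2 least (144, 140 and 139 TPM). Of 25 other ERAD genes 24 were at 1 TPM or more. Os9 (136, 182 and 254 TPM), Selenok (136, 202 and 206 TPM) and Vcp (226, 181 and 131 TPM) were highest. Derl3, the plasma-cell relative of Derl1, was at 0.05, 0 and 0.51 TPM. By the same measure Erlec1 varied most (22.5, 24.9 and 55.4 TPM) and Ube2j2 least (51.4, 47.0 and 46.2 TPM).

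Other ATF4 and integrated stress response targets were counted in the same way. Of 36 there were 26 that passed 1 TPM in all libraries, the median was 11.0 TPM, and 12 of 29 tested spanned more than 2-fold on TMM-scaled counts (36.9% of all genes). Slc3a2 (419, 323 and 341 TPM), Atf3 (158, 178 and 490 TPM) and Nars (78.6, 109 and 182 TPM) were highest, and Fgf21 was listed at 0 in every library. Gdf15 had the largest TPM ratio among those at 10 TPM or more (96.1, 62.4 and 16.9 TPM) and Cars the smallest (16.7, 18.9 and 15.8 TPM). An unadjusted edgeR p under 0.05 was found for 6 of 29 (4.59% of all genes), none with an adjusted p under 0.970. The 6, chosen after their values were seen, were Psat1, Slc7a5, Slc7a1, Cebpb, Gdf15 and Bbc3. The amino acid genes among them were highest in replicate 1, as was Asns: Psat1, of serine synthesis, at 24.5, 2.71 and 4.56 TPM, and the transporters Slc7a5 at 7.73, 0.83 and 0.82 TPM and Slc7a1 at 10.2, 1.63 and 2.91 TPM. Cebpb (18.5, 28.6 and 2.95 TPM) and Bbc3 (5.02, 20.5 and 3.40 TPM) were highest in replicate 2. Gdf15 was also highest in replicate 1 in TPM. Nars and Cars, outside the 6, were highest in replicate 3 and replicate 2. Over all 29 tested genes of the list, 11 were highest in replicate 1 (34.7% of all genes) and 11 in replicate 2 (32.3%) on TMM-scaled counts.

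Of 30 other sensors and regulators 26 were at 1 TPM or more. Tmbim6 (403, 493 and 307 TPM), Nfe2l2 (148, 327 and 297 TPM) and Ddrgk1 (80.1, 93.4 and 151 TPM) were highest. Ern2, the epithelial form of IRE1, was listed at 0 in every library. By TPM ratio at 10 TPM or more Atf6b varied most (52.8, 48.9 and 21.8 TPM) and Eif2ak2, the eIF2alpha kinase activated by double-stranded RNA, least (51.2, 64.0 and 56.9 TPM). The test called 0 genes in each of these lists, with unadjusted p under 0.05 for 1 of 42 folding factors, 0 of 33 translocon genes, 0 of 24 ERAD genes and 1 of 28 regulators.

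**Figure D5:**
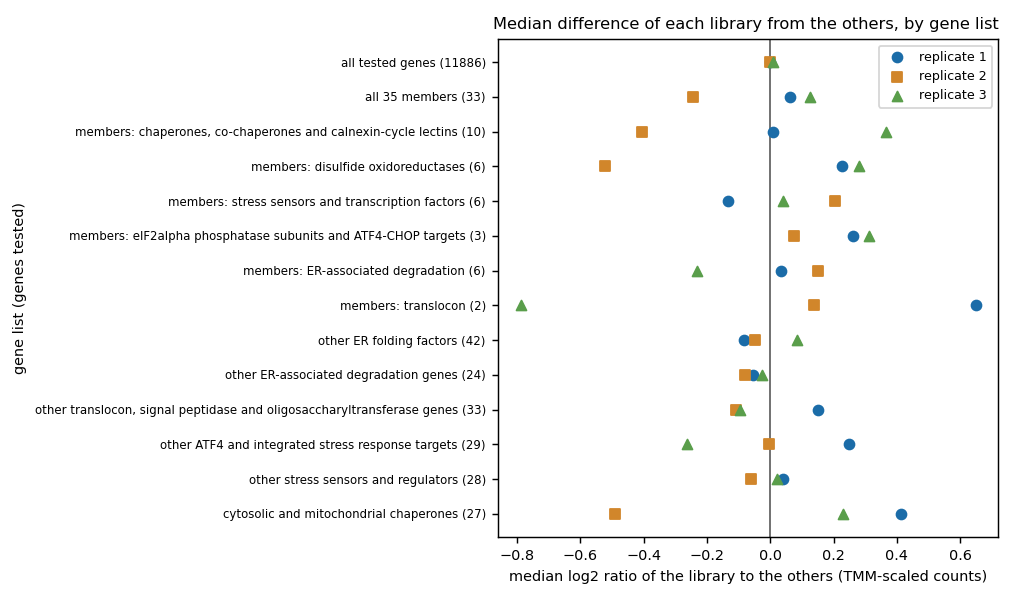
Median log2 ratio of each library to the others on TMM-scaled counts for each gene list, with the number of genes tested in brackets. The chaperone and oxidoreductase groups and the cytosolic and mitochondrial chaperones lie lowest in replicate 2, while the median of all tested genes lies at zero.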

How the data were processed

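Polyadenylated RNA of 3 macrophage libraries was analysed from tables the authors deposited. Per the deposited file lists, RSEM-format gene and transcript tables were made from transcriptome alignments and kallisto-format tables from reads, with build mm10 and GENCODE M21. The aligner, its version and any use of strand were not given in the sources used here. The deposited expected counts divide reads shared by several transcripts, per the file headers, and estimated counts were deposited in the kallisto-format tables. TPM, per the file headers, are scaled after division by effective length. Posterior mean counts and TPM in the deposited tables served as alternatives. Entries that name no gene (26345, holding 0.131%, 0.122% and 0.0843% of counts) were left out.

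Expected counts were rounded and tested with edgeR 4.0.16 (limma 3.58.1, R 4.3.3): filterByExpr, TMM, glmQLFit in its legacy form with an intercept only, and an upper-tail F test of quasi-dispersions, with Benjamini-Hochberg adjustment at 0.05 over all 11886 tested genes. The script was tested on simulated data. Log2 ratios used TMM-scaled counts with prior count 0.5. Alternatives were DESeq2 1.42.0 (dispersion outliers, size factors), other scalings, no filter, other tables, pseudocounts 1 and 0.1, and leaving out each library. Levels carry no interval of their own beyond the spread of 3 libraries. Protein sequences were not used here. The 35 genes, the gene lists and the markers were chosen with earlier results of these data known. The naming rule took all 35 genes and, of each other list, the 3 highest by mean TPM, the lowest, and those with the largest and smallest ratio between libraries at 10 TPM or more. For transcripts it took each dominant transcript and genes where this differed or held under 60%. Symbols Hm13 and Mars1 of the lists were not found in the tables.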

Additional observations from a re-analysis of the deposited data

How the results depend on the processing

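No paired analysis was possible because the libraries form 1 group and no groups were compared. The count of members called more variable stayed at 0 under every alternative run, including each library left out and protein-coding transcripts of at least 1000 nt only, an alternative chosen after seeing the data. Over all genes the calls were 0, but 146 with no filter on low counts, 7 without replicate 2 and 9 by DESeq2's dispersion outliers. Members that passed 1 TPM in all libraries stayed at 33, and was 32 at 5 TPM. The median level of 60.8 TPM became 76.8 TPM when TPM was rescaled over nuclear protein-coding genes, and 51.0 with the kallisto-format tables. The median log2 ratio in replicate 3, 0.12 on TMM-scaled counts, was -0.10 on log2 TPM with pseudocount 1 and -0.11 with pseudocount 0.1, where the median of all genes was -0.23 and -0.28. In replicate 2 it was negative under every alternative, from -0.28 to -0.11. Replicates 1 and 3 did not differ in the median when replicate 2 was left out (0.00). Genes with an ERSE numbered 8 with an exact match and 14 with 1 mismatch, a search added after seeing the data. Of the 35 mean levels 12 moved by more than 1 SD with the kallisto-format tables, 18 with the rescaled TPM and 0 with posterior means. Leaving out 1 library moved 4 mean levels by more than 1.5 times: Calr to 827 TPM without replicate 3, Herpud1 to 11.7 TPM without replicate 2, and Trib3 to 0.285 and Chac1 to 0.055 TPM without replicate 1. The count of 30 genes with the same dominant transcript in every library became 35 without replicate 3. Low counts limit Trib3 and Chac1.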

Other observations

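Chaperones of the cytosol and mitochondria were listed beside the ER genes. Of 29 genes 25 passed 1 TPM in all libraries, and the median was 96.1 TPM. Hspa8, the constitutive cytosolic Hsp70, stood at 1906, 1306 and 1738 TPM, and Hsp90ab1 at 814, 446 and 655 TPM. St13, an Hsp70 cofactor, was at 123, 108 and 478 TPM, the widest ratio among those at 10 TPM or more, and Dnajb4 at 18.6, 17.1 and 17.4 TPM had the narrowest. Hspb8 was lowest, at 0, 0 and 0.05 TPM. On TMM-scaled counts 21 of 27 tested genes were lowest in replicate 2 (32.9% of all genes), with median log2 ratios of 0.41, -0.49 and 0.23. An unadjusted edgeR p under 0.05 was found for none of the 27, and none was called.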
